A study of Mus musculus with 6 samples.

Results

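Ribosome biogenesis genes, the RNA polymerase I genes that start the same pathway, and the transcription factor gene Myc were examined in NIH3T3 cells, an immortalised line of mouse embryonic fibroblasts. The set held 47 genes chosen by symbol, of the 55401 genes listed in the deposited tables, and all 47 passed the expression filter. Messenger RNA was sequenced from wild-type NIH3T3 cells in 2 groups of 3 libraries, given either the vehicle DMSO or IPRN. Neither a dose nor a treatment time is stated. Angelicin, a furanocoumarin made by plants, stands in the title of the series, and hydrogen peroxide and TGF-β are named as the agents that brought the fibroblasts towards the state of those found in tumours. Whether the DMSO libraries also came from cells given both stimuli is not stated. Nothing records that the replicates of a group were grown separately, so each p-value reflects the scatter among 3 libraries a group, part or all of which may be technical.

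Ribosomes are made in the nucleolus, where RNA polymerase I transcribes a long precursor RNA that is cut and modified into most of the ribosomal RNAs. Small nucleolar ribonucleoproteins (snoRNPs) guide the chemical modification of this precursor, and separate sets of assembly factors then build the small and the large subunit and pass them to the cytoplasm. Growing fibroblasts spend much of their transcription on this pathway, and MYC, a factor that binds the E-box sequence, is known for driving many of its genes.

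The 47 genes were placed together with results of the IPRN and DMSO libraries already known, so their differences between the groups are a description and carry no weight as a test of the set. Their levels under IPRN lay slightly below those under DMSO for most genes, by no more than 1.33-fold. A gene is called here when its adjusted p is under 0.05 in edgeR's quasi-likelihood test, with Benjamini-Hochberg adjustment over all 17159 genes tested. By that rule 5.47% of all tested genes were called, 3.01% lower and 2.46% higher. Of the 47 genes, 7 fell (Wdr75, Wdr43, Dkc1, Nop56, Gnl2, Gnl3 and Riok2), 0 rose and 40 were not called. At an unadjusted p under 0.05, edgeR gave 23 lower and 0 higher among the 47, against 10.8% and 11.2% of all tested genes. DESeq2 called 15 of the 47 lower and 0 higher, against 7.28% and 7.49% of the 12917 genes it gave an adjusted p.

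Total counts ran from 60320282 to 78629444 per library, and the 47 genes had between 1152 and 151437 counts in a library. Summed fibroblast markers (10 genes, Col1a1 and Vim among them) lay between 22551 and 23455 CPM, the count scaled to the library total, in the DMSO libraries and between 24155 and 27192 CPM in the IPRN libraries, so every IPRN library was higher. The part of this shift in the results below was not tested. A sum of 22 liver transcripts came to 5.45, 69.4 and 42.4 CPM in DMSO 1, 2 and 3 and to 127, 46.3 and 6.37 CPM in IPRN 1, 2 and 3, so DMSO 1 and IPRN 3 stood apart from the rest. The 7 immune markers summed to at most 12.5 CPM except in IPRN 3, at 127 CPM, with Cd3e at 0 in every library. Epithelial, endothelial and blood markers summed to at most 2.62, 3.32 and 2.15 CPM. IPRN 1 differed more from the other IPRN libraries than any other pair of replicates did (chi-square per degree of freedom 89.9 and 97.6, against 34 to 48.8).

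Across the libraries, the 47 genes took 0.880%, 0.903% and 0.873% of all counts in DMSO 1, 2 and 3. The shares in IPRN 1, 2 and 3 were 0.809%, 0.783% and 0.773%. Each IPRN share was below each DMSO share. The median gene of the set stood at -0.128, -0.144 and -0.161 in the IPRN libraries on the log2 scale, relative to the DMSO mean of each gene, against -0.003, 0.020 and -0.015 in the DMSO libraries. In IPRN 1, 2 and 3, respectively, 13, 11 and 9 of the 47 genes lay within the range of the DMSO libraries. The like share over all tested genes was not computed, so these counts do not measure a shift of the set. Since counts are shares of a library, and the samples are bulk cultures, less of these transcripts per cell cannot be told apart from fewer cells that make them.

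**Figure D1:**
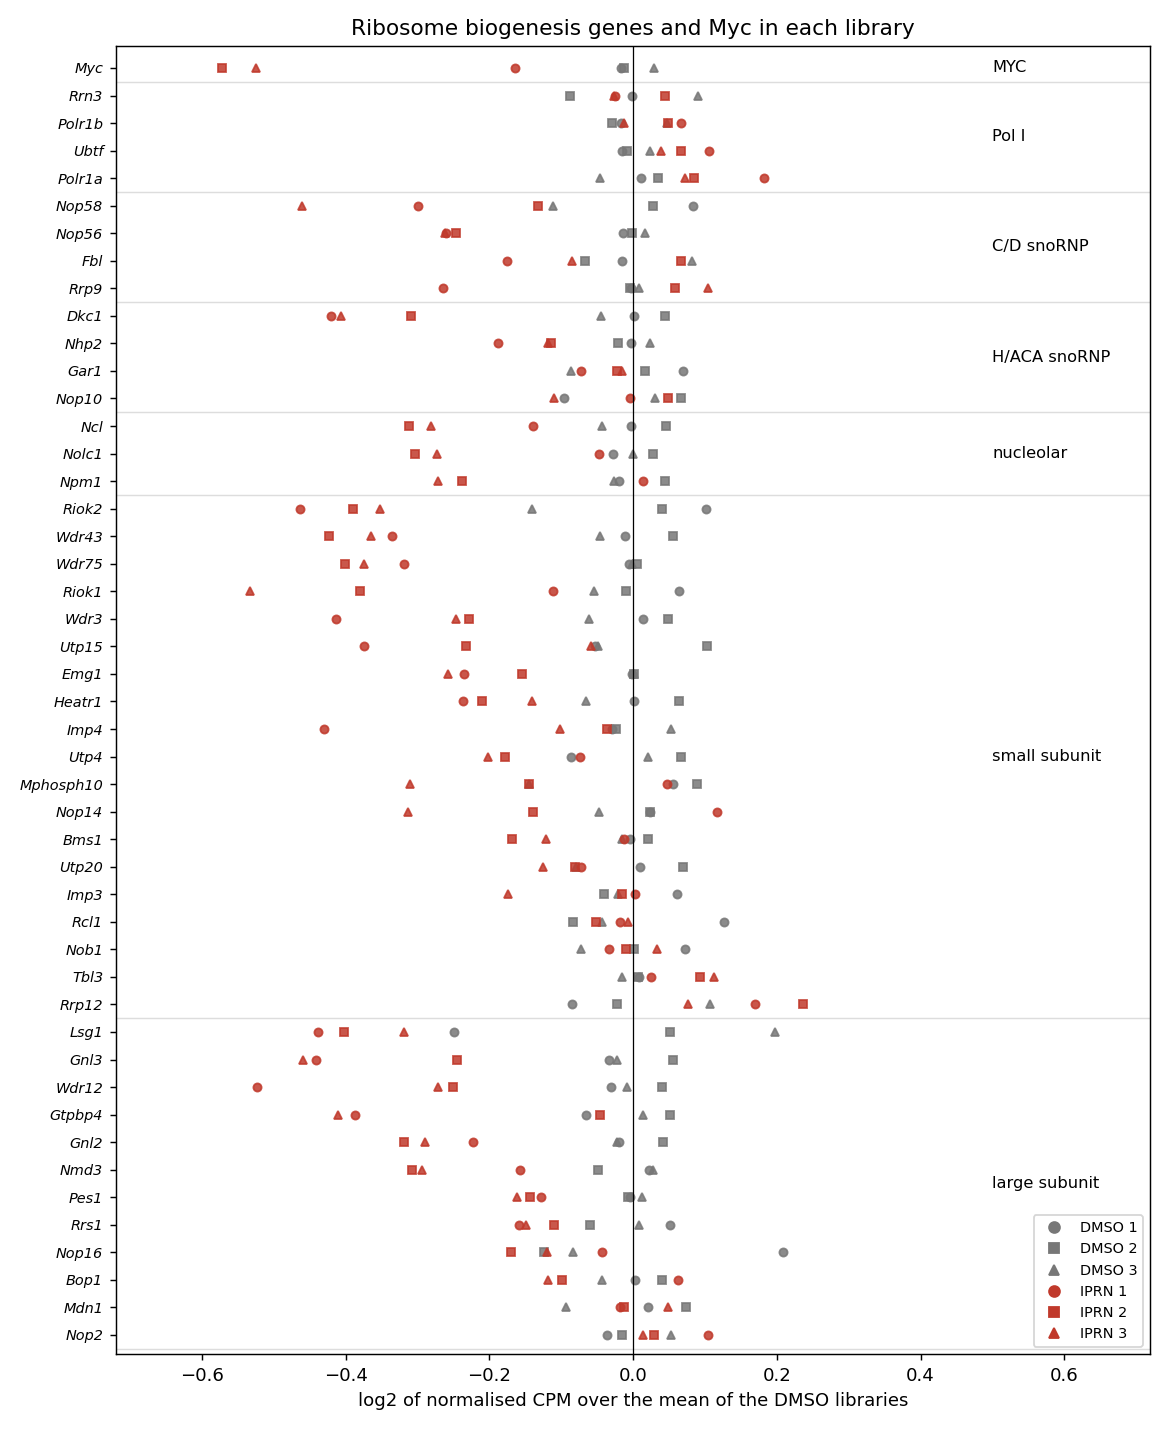
Each point is 1 library's normalised CPM of a gene on the log2 scale, relative to the mean of the DMSO libraries (grey, DMSO; red, IPRN; circle, square and triangle, replicates 1, 2 and 3), with genes grouped by role. For 23 genes all IPRN points lie left of all DMSO points, for 3 they all lie right of them, and for 21 the groups overlap.

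All IPRN libraries lay below all DMSO libraries for 23 of the 47 genes and above them for 3, which were Polr1a, Ubtf and Tbl3. The same patterns held for 14.7% and 14.9% of all tested genes, or 29.6% in either direction. The log2 fold changes ran from -0.41 to 0.16 with a median of -0.14, and 40 of them were negative, against a median of 0.002 and 49.8% negative values over all tested genes.

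Myc (ENSMUSG00000022346, chromosome 15 from 61985391 to 61990350, plus strand, in the deposited coordinates) measured 102, 102 and 105 normalised CPM in DMSO 1, 2 and 3. Its values in IPRN 1, 2 and 3 were 92.1, 69.5 and 71.8 CPM. All IPRN values were below all DMSO values, but IPRN 1 was much closer to DMSO than the other IPRN libraries. The means were 103 ± 1.84 and 77.8 ± 12.5 CPM (SD, n = 3), a log2 fold change of -0.41 ± 0.108 (SE) with a 95% interval from -0.67 to -0.15. Myc was not called by edgeR's quasi-likelihood test (adjusted p = 0.0802). Without IPRN 1 the log2 fold change was -0.55 and Myc was called (adjusted p = 0.00355). DESeq2 also called it with all libraries (adjusted p = 0.00651).

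Of the 4 RNA polymerase I genes in the set, 0 were called by edgeR or DESeq2, 0 had an unadjusted p under 0.05 in edgeR, and 3 had a positive log2 fold change. Polr1a, which encodes the largest catalytic subunit, measured 173, 176 and 166 CPM in DMSO 1, 2 and 3 and 195, 182 and 181 CPM in IPRN 1, 2 and 3. Each IPRN value was higher than each DMSO value, with a log2 fold change of 0.11 ± 0.050 (SE) that was not called (95% interval -0.01 to 0.23). Ubtf, whose product binds the ribosomal DNA and holds it open for transcription, measured 159, 160.0 and 164 CPM in DMSO and 173, 169 and 165 CPM in IPRN. Its groups touched without overlapping, at a log2 fold change of 0.07 (95% interval -0.03 to 0.17).

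For Polr1b, the second-largest subunit, the groups overlapped around means of 63.2 ± 1.82 and 64.7 ± 1.87 CPM (log2 fold change 0.03, 95% interval -0.09 to 0.16). Rrn3, the factor that makes the polymerase competent to start, had the same mean in both groups to 3 digits, 139 ± 8.63 and 139 ± 3.91 CPM. Its log2 fold change of -0.00 (95% interval -0.14 to 0.13) turned positive or negative with the scaling used, and the same was true of Mdn1 and Nob1. The median over these 4 genes was 0.052, against -0.081 over 21 other genes of RNA polymerase I transcription, and the difference between them was not tested.

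**Figure D2:**
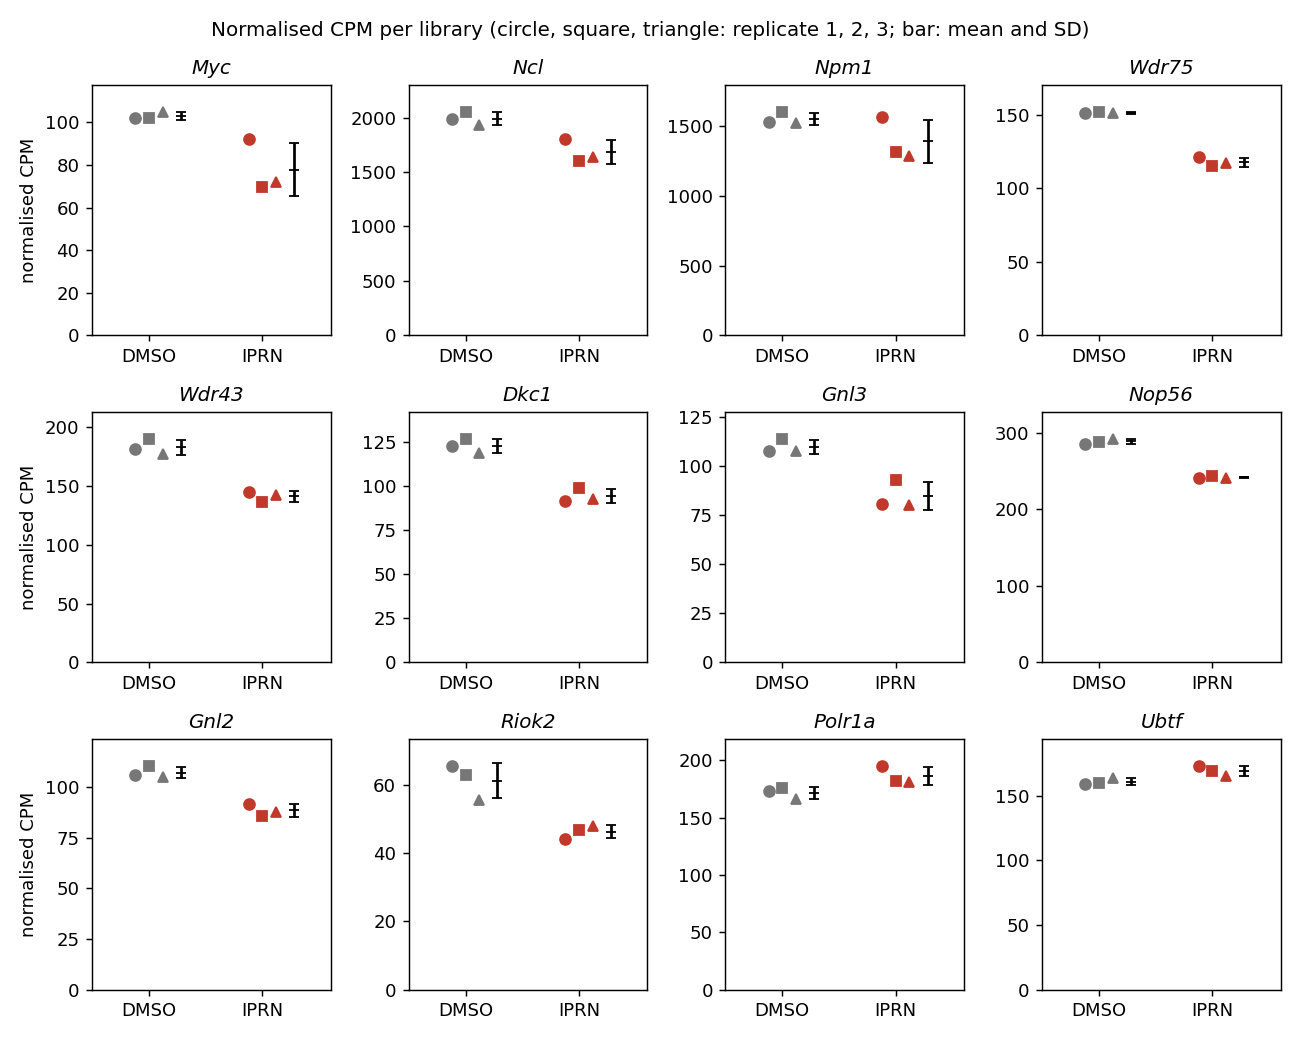
Normalised CPM of 12 genes in each library (grey, DMSO; red, IPRN), with the mean and SD of each group as a bar and each axis starting at 0. The 7 called genes and Myc are lower in every IPRN library than in every DMSO library, whereas Polr1a and Ubtf are higher in every IPRN library.

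Of the 4 genes in the set for proteins of box C/D snoRNPs, most of which guide methylation of ribosomal RNA on the ribose, Nop56 was called. Nop56, a scaffold protein of these particles (ENSMUSG00000027405, chromosome 2 from 130274430 to 130279313, plus strand), measured 286, 288 and 292 CPM in DMSO and 241, 243 and 241 CPM in IPRN. The libraries of each group were within a few CPM of one another and the groups were far apart. Nop56 fell by 0.26 ± 0.039 (SE) on the log2 scale, or 1.19-fold (edgeR adjusted p = 0.0195). The gene shares 8.12% of its exon bases with other gene models, among them Idh3b on the opposite strand and small nucleolar RNAs within it.

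Nop58, the paired scaffold, measured 293, 282 and 256 CPM in DMSO and 225, 252 and 201 CPM in IPRN. The groups did not overlap, but DMSO 3 and IPRN 2 were separated by only a few CPM, and the log2 fold change of -0.29 ± 0.092 was not called (adjusted p = 0.120 in edgeR, 0.0300 in DESeq2). Fbl, the methyltransferase itself, measured 224, 216 and 239.6 CPM in DMSO and 200.4, 237 and 213 CPM in IPRN, with overlap (95% interval of the log2 fold change -0.24 to 0.11). Rrp9, a protein specific to the U3 particle, measured 34.5 CPM in IPRN 1 but 43.2 and 44.6 CPM in IPRN 2 and 3, on either side of the DMSO values of 41.4, 41.4 and 41.7 CPM.

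In the box H/ACA particles, which convert uridine to pseudouridine, Dkc1 was called and its 3 partner genes were not. Dkc1, the pseudouridine synthase dyskerin and also a telomerase component (ENSMUSG00000031403, chromosome X from 75095854 to 75109777, plus strand), measured 123, 127 and 119 CPM in DMSO and 91.7, 99.1 and 92.7 CPM in IPRN. Every IPRN library was about 20 CPM or more below the lowest DMSO library. Dkc1 fell by 0.38 ± 0.053 on the log2 scale (1.30-fold, edgeR adjusted p = 0.0153). Nhp2 measured 182 ± 2.79 and 165 ± 4.76 CPM with no overlap and was not called (log2 fold change -0.14, adjusted p = 0.118). Gar1 and Nop10 overlapped between the groups, at log2 fold changes of -0.04 (95% interval -0.18 to 0.11) and -0.02 (-0.19 to 0.14).

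Nucleolin (Ncl) and nucleophosmin (Npm1) are the abundant multifunctional proteins of the nucleolus, and Nolc1 encodes a chaperone of snoRNPs. Ncl measured 1984, 2053 and 1931 CPM in DMSO and 1807, 1602 and 1635 CPM in IPRN, with no overlap. Its log2 fold change was -0.24 ± 0.058 (adjusted p = 0.0608 in edgeR, not called). DESeq2 called Ncl with all libraries (adjusted p = 0.0130). Npm1 measured 1532, 1603 and 1526 CPM in DMSO and 1569, 1317 and 1287 CPM in IPRN. IPRN 1 lay among the DMSO libraries for Npm1, and IPRN 2 and 3 lay below them. Nolc1 showed a like split, at 210.1 CPM in IPRN 1 against 176 and 179.7 CPM in IPRN 2 and 3, below a DMSO mean of 217 ± 4.18 CPM.

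Without IPRN 1, edgeR called all 3 of these genes, with log2 fold changes of -0.30, -0.25 and -0.29 for Ncl, Npm1 and Nolc1 and adjusted p-values of 0.0106, 0.0143 and 0.0142. With all libraries the log2 fold changes of Npm1 and Nolc1 were -0.16 (95% interval -0.35 to 0.03) and -0.20 (-0.38 to -0.03), and neither was called.

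The small subunit processome is the large particle that folds and cuts the precursor of the small subunit rRNA. Of 19 genes of the processome and of later small subunit maturation, 3 fell and 16 were not called, with a median log2 fold change of -0.15 and 17 negative values. Wdr75 (ENSMUSG00000025995, chromosome 1 from 45795166 to 45823619, plus strand) and Wdr43 (ENSMUSG00000041057, chromosome 17 from 71615895 to 71659031, plus strand) encode subunits of the part of the processome that also promotes transcription of the precursor. Wdr75 measured 151, 152 and 151 CPM in DMSO and 121, 115 and 117 CPM in IPRN. Wdr43 measured 181, 189.7 and 177 CPM in DMSO and 145, 136 and 142 CPM in IPRN.

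For both genes the groups were separated by about 30 CPM, with little scatter inside each group. Wdr75 fell by 0.36 ± 0.044 on the log2 scale, or 1.29-fold (adjusted p = 0.00943), the smallest adjusted p of the set, and Wdr43 fell by 0.38 ± 0.049, or 1.30-fold (adjusted p = 0.0125). Riok2, an atypical kinase of late small subunit maturation (ENSMUSG00000116564, chromosome 17 from 17374309 to 17394899, plus strand), measured 65.4, 62.7 and 55.4 CPM in DMSO and 44.2, 46.6 and 47.8 CPM in IPRN. Its IPRN values were close together and below a wider DMSO group. Riok2 fell by 0.41 ± 0.078 on the log2 scale, or 1.32-fold (adjusted p = 0.0351).

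Other subunits of the same processome module were lower in every IPRN library without being called. Heatr1 measured 82.4 ± 3.70 and 71.9 ± 2.50 CPM (log2 fold change -0.20, adjusted p = 0.0979), and Utp15 57.4 ± 3.60 and 49.3 ± 5.45 CPM (-0.22, 95% interval -0.44 to 0.00). For Utp4 the groups overlapped, because IPRN 1 at 100.4 CPM was above DMSO 1 at 99.4 CPM (log2 fold change -0.15). Wdr3, of a second processome module, measured 59.3, 67.4 and 66.6 CPM in IPRN, below all DMSO values of 79.7, 81.7 and 75.7 CPM (-0.29 ± 0.067, edgeR adjusted p = 0.0554). DESeq2 called Wdr3 (adjusted p = 0.0105). Tbl3, of the module that holds Wdr3, went the other way with 89.2 ± 0.802 CPM in DMSO and 94.2 ± 2.99 CPM in IPRN (0.08, 95% interval -0.03 to 0.19).

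Emg1, a methyltransferase of the small subunit rRNA, stood at 101 CPM in each DMSO library and at 85.5, 90.5 and 84.2 CPM in IPRN, a log2 fold change of -0.22 ± 0.048 (adjusted p = 0.0529). It was just short of a call in edgeR with TMM scaling and was called with upper quartile scaling. DESeq2 also called Emg1 (adjusted p = 0.0274). Riok1, a relative of Riok2, measured 25.9 ± 1.08 and 20.6 ± 3.09 CPM (log2 fold change -0.33, adjusted p = 0.159), and was called without IPRN 1 (-0.45, adjusted p = 0.0431). The proteins of the MPP10 complex, Mphosph10, Imp3 and Imp4, had log2 fold changes of -0.13, -0.06 and -0.18, with intervals that all included 0. Imp4 measured 72.7 CPM in IPRN 1 but 95.6 and 91.3 CPM in IPRN 2 and 3, just under the DMSO range of 96.1 to 102 CPM.

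The remaining small subunit genes were not called. Nop14, a processome core protein, had a log2 fold change of -0.10 with values from 68.4 to 92.1 CPM across the IPRN libraries, IPRN 1 being above every DMSO library, and of -0.22 without IPRN 1. Bms1, a processome GTPase, stood at -0.10 (95% interval -0.23 to 0.03), Utp20 at -0.09 (-0.22 to 0.03) and Rcl1, a protein related to RNA cyclases, at -0.03 (-0.19 to 0.13). Nob1, the nuclease that trims the last spacer from the small subunit rRNA, had a log2 fold change of -0.00 (-0.14 to 0.13). Rrp12, an export and maturation factor, had the highest log2 fold change of the set at 0.16 ± 0.069, from 103 ± 7.02 to 115 ± 6.29 CPM, with overlapping groups and no call (adjusted p = 0.238).

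Of the 12 genes of large subunit assembly and export, 2 fell and 10 were not called, with a median log2 fold change of -0.20. Both that fell encode nucleolar GTPases (Gnl3 and Gnl2). Gnl3, or nucleostemin (ENSMUSG00000042354, chromosome 14 from 31012433 to 31019152, minus strand), measured 108, 114 and 108 CPM in DMSO and 81.0, 92.9 and 80.1 CPM in IPRN. Gnl2 (ENSMUSG00000028869, chromosome 4 from 125016585 to 125055380, plus strand) measured 106, 110.3 and 105 CPM in DMSO and 91.8, 85.8 and 87.6 CPM in IPRN. Both pairs of groups were separate, and for Gnl3 the IPRN 2 library was the nearest to DMSO. Gnl3 fell by 0.38 ± 0.071 on the log2 scale (1.30-fold, edgeR adjusted p = 0.0317) and Gnl2 by 0.28 ± 0.050 (1.21-fold, adjusted p = 0.0294).

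Gtpbp4, another nucleolar GTPase gene, measured 73.9, 93.6 and 72.6 CPM in IPRN against a mean of 96.6 ± 3.93 CPM in DMSO. Its IPRN 2 value lay inside the DMSO range and the other IPRN values far below it (log2 fold change -0.27 ± 0.103, not called). Wdr12, Pes1 and Bop1 encode the 3 proteins of the PeBoW complex, which is needed to process the large subunit rRNA, and their log2 fold changes differed in size. Wdr12 stood at -0.34 ± 0.079 (adjusted p = 0.0569), Pes1 at -0.14 ± 0.039 (0.0850) and Bop1 at -0.05 ± 0.062 (0.718). Wdr12 measured 73.0 CPM in IPRN 1 and 88.1 and 86.9 CPM in IPRN 2 and 3, all below its DMSO mean of 105 ± 2.65 CPM. Without IPRN 1 it was called by edgeR at a smaller log2 fold change of -0.26 (adjusted p = 0.0293). DESeq2 called Wdr12 with all libraries (adjusted p = 0.00508).

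Among export factors, Nmd3, the adaptor that carries the large subunit out of the nucleus, measured 91.1, 86.7 and 91.3 CPM in DMSO and 80.4, 72.4 and 73.2 CPM in IPRN (log2 fold change -0.25 ± 0.060, edgeR adjusted p = 0.0604). DESeq2 called Nmd3 (adjusted p = 0.0214). Lsg1, the GTPase that releases Nmd3 in the cytoplasm, measured 49.3, 60.7 and 67.3 CPM in DMSO and 44.9 ± 1.92 CPM (mean and SD, n = 3) in IPRN. The IPRN libraries of Lsg1 were close together, and the wide DMSO group came within a few CPM of them. Its log2 fold change of -0.40 ± 0.114, among the lowest of the set, was not called by edgeR (adjusted p = 0.0964) and was called by DESeq2 (0.0154).

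Rrs1, an assembly factor for the small RNA that RNA polymerase III supplies to the large subunit, had non-overlapping groups at 186 ± 7.18 and 169 ± 2.99 CPM (log2 fold change -0.14, adjusted p = 0.138). Nop16 (log2 fold change -0.12, 95% interval -0.36 to 0.12), the giant ATPase gene Mdn1 (0.00, -0.13 to 0.14) and the rRNA methyltransferase gene Nop2 (0.05, -0.07 to 0.16) all had overlapping groups. Among the assembly genes of both subunits, the 5 that fell did so by 1.21-fold to 1.32-fold.

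**Figure D3:**
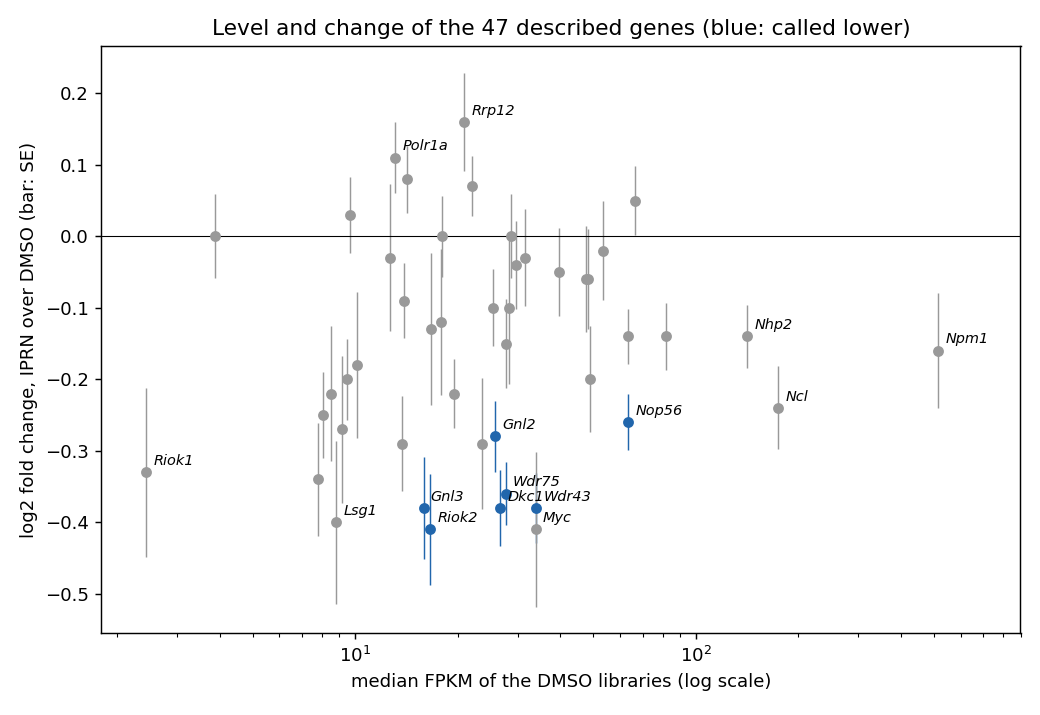
Median FPKM of the DMSO libraries on a log axis against the log2 fold change of each of the 47 genes, with bars of 1 SE and the 7 called genes in blue. The called genes run from 15.9 FPKM for Gnl3 (rank 32 of the 47) to 63.3 FPKM for Nop56 (rank 7), and the highest gene, Npm1 at 516 FPKM, was not called.

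Per length of transcript, in the FPKM values that the authors deposited, the set spanned a wide range in the DMSO libraries. Npm1 was highest at 513 to 541 FPKM, followed by Ncl at 169.8 to 181 FPKM and Nhp2 at 141 to 144 FPKM, and the range of each lay above that of the next gene. Next came Rrs1 at 78.4 to 84.4 FPKM and Nop2 at 65.4 to 69.4 FPKM, also separate from the gene below. Pes1 and Nop56 could not be ordered, at 63.3 to 64.0 and 62.6 to 63.8 FPKM. Myc stood 14th of 47 with a median of 33.9 FPKM, next to Wdr43 at 34.0 FPKM, and the ranges of these genes overlapped. Mdn1, at 3.58 to 4.04 FPKM, and Riok1, at 2.35 to 2.56 FPKM, were lowest. In all, 20 of the 47 genes had a lowest DMSO value above the highest of the next gene.

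The E-box (CACGTG, which reads the same on both strands) is the sequence that MYC binds with MAX, and it was looked for because Myc belongs to the set. RefSeq promoter entries on GRCm38.p6, each from 250 bases before to 50 bases after the gene start that the entry uses, were matched for 39 of the 47 genes. That start can differ from the deposited gene start, as it does for Wdr43, Nmd3 and Nop56. Bop1, Fbl, Gnl2, Myc, Npm1, Rrp12, Rrs1 and Tbl3 had no entry. A gene was counted when any of its entries held the motif. An E-box was found for 9 of the 39 genes (23.1%), against 27 of 138 (19.6%) for other ribosome biogenesis genes. The shares were 11.2% of 11059 tested genes with an entry and 7.15% of all 32851 gene symbols with an entry. The windows follow with up to 12 bases on each side, with the E-box in capitals, read on the strand of the gene. The first base of the E-box is counted from the start that the entry uses (positive after it).
Imp4 (chr1:34439696-34439725, plus strand, E-box from -121): acggtcttagacCACGTGacatcccaaatc
Mdn1 (chr4:32657145-32657168, plus strand, E-box from 39): gaattccttcacCACGTGtgtgtc
Nmd3 (chr3:69721929-69721958, plus strand, E-box from -114): cgccccttgctaCACGTGtattctttgacc
Nop2 (chr6:125131811-125131840, plus strand, E-box from -60): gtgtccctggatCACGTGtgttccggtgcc
Pes1 (chr11:3963965-3963994, plus strand, E-box from 3): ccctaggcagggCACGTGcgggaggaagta
Rrn3 (chr16:13780472-13780501, plus strand, E-box from -215): gagcgccaaggtCACGTGcacacgcctcta
Rrn3 (chr16:13780639-13780668, plus strand, E-box from -48): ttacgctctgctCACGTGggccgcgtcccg
Utp20 (chr10:88826765-88826789, minus strand, E-box from 38): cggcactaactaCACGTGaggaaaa
Utp4 (chr8:106893643-106893672, plus strand, E-box from 16): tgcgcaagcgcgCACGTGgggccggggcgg
Wdr43 (chr17:71616220-71616249, plus strand, E-box from 18): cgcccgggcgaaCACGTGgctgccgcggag

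The E-box lay before the start used by the entry in Imp4, Nmd3, Nop2 and at both places in Rrn3, and after it in Mdn1, Pes1, Utp20, Utp4 and Wdr43. Of the 7 called genes, 6 had an entry and only Wdr43 among them held an E-box, while Rrn3, with a log2 fold change of -0.00, held 2. A match of letters is a description of the sequence and no evidence of binding in these cells. The noncanonical form CACGCG, searched on both strands, was found for 33.3% of the 39 genes against 19.3% of tested genes. The other motifs searched on both strands were CCAAT (41.0% against 43.3% of tested genes), TATAAA (5.13% against 9.51%), GGGCGG, known as the SP1 box and able to overlap copies of itself (64.1% against 66.2%), and CCGGAAG, a site of ETS factors (30.8% against 19.0%).

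The 250 bases before the start used by the entry are shown for Wdr75, Dkc1 and Nop56, the called genes whose upstream stretch held no annotated exon in GENCODE M21. Letters that match any of the 6 motifs above, on either strand, are in capitals.
Wdr75 (chr1:45794916-45795165, plus strand): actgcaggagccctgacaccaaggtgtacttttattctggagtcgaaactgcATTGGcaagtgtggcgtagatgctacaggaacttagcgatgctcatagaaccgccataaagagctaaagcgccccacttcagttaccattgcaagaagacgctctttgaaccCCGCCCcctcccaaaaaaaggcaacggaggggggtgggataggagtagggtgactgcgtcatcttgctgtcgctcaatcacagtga
Dkc1 (chrX:75095604-75095853, plus strand): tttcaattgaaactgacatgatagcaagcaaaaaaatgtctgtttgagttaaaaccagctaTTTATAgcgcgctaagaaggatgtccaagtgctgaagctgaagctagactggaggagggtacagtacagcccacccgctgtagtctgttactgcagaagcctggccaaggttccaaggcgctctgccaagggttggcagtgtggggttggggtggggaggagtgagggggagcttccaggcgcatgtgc
Nop56 (chr2:130274162-130274411, plus strand): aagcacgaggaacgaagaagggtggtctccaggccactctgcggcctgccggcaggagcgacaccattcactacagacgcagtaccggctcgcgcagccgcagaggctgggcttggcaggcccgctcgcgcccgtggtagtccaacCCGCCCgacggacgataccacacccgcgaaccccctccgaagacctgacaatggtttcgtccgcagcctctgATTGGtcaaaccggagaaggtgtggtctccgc

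Wdr75 and Nop56 each held a CCAAT box and an SP1 box in this stretch, whereas Dkc1 held a TATAAA match on the opposite strand and neither of those boxes. The share of G and C was 52.0% for Wdr75 and Dkc1 and 65.2% for Nop56. No motif of the 6 was common to all 3 stretches. Over the full entries, which also hold the 50 bases after the start, a CCAAT box was found for Wdr75, Dkc1 and Nop56 alike.

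According to GENCODE M21, 6 of the 47 genes carry small nucleolar RNA genes inside them, 19 in all. These hosts are Nop56, Nop58, Gnl3, Dkc1, Ncl and Wdr43. All 6 had non-overlapping groups with IPRN lower, as had 14.7% of all tested genes. Of these hosts 4 were called, and their median log2 fold change was -0.33. All 6 also share exon bases with another gene model, as do 16 of the other 41 genes. Hosting and exon overlap therefore cannot be told apart in these 6 genes, and neither was tested. Of the other 41 genes 3 were called, with a median of -0.13. Among 230 other protein-coding hosts of small nucleolar RNAs that were tested, 9 fell (3.91%) and 5 rose, with a median of -0.044, beside 3.01% and 2.46% over all tested genes. All IPRN libraries lay below all DMSO libraries for 52 of these 230 hosts and above them for 35.

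Exons of 22 of the 47 genes overlap another gene model, and since the protocol names no step that keeps the strand, reads of such partners may be counted for either gene. Of the 7 called genes only Wdr75 has no such overlap. The shared bases were few for most of them, at 1.09% of exon bases for Dkc1, 1.17% for Gnl2, 1.26% for Wdr43 and 4.1% for Gnl3, against 8.12% for Nop56 and 10.6% for Riok2. The large partners on the opposite strand were not called: Idh3b, beside Nop56, had a log2 fold change of -0.03, Mpp1, beside Dkc1, -0.04, and Pbrm1, beside Gnl3, 0.09. Gm26873, antisense to Riok2, had means of 2.73 ± 0.703 and 1.03 ± 0.352 CPM (log2 fold change -1.41, adjusted p = 0.0627, edgeR). The means of Riok2 itself were 61.2 ± 5.22 and 46.2 ± 1.81 CPM. Tbl3 shares the largest part named here, 37.3% of its exon bases, and Bop1 overlaps Mroh1, which rose from 66.9 ± 2.62 to 85.6 ± 2.84 CPM (adjusted p = 0.0198, edgeR). Over the 25 genes without overlap, a subset chosen after the data were seen, 1 gene was called and the median log2 fold change was -0.093. The share called among all tested genes without overlap was not computed, so this count is a description only. The part of exon overlap in the calls of the set was not tested.

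Calls of single genes depended on which libraries entered the test, while the median of the set hardly moved. None of the 47 genes was called without DMSO 1 or without DMSO 2 (0 genes in edgeR), where 0.578% and 0.595% of all tested genes were called lower. At an unadjusted p under 0.05, 19 of the 47 were lower in each of these fits, against 7.81% and 7.64% of all tested genes. Without DMSO 3 only Wdr43 was called (0.742% of all genes), without IPRN 2 Dkc1, Gnl3 and Wdr75 (0.910%), and without IPRN 3 Wdr43 and Wdr75 (0.963%). Without IPRN 1 the count was 12, against 3.32% of all genes, and it held 5 of the 7 genes called with all libraries.

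Wdr43 and Wdr75 each kept their call in 3 of these 6 fits (adjusted p from 0.0518 to 0.0718 and from 0.0520 to 0.0639 in the others). Dkc1 kept it in 2 (0.0560 to 0.0872 in the others), and Nop56 (0.0639 to 0.104), Gnl2 (0.0869 to 0.135) and Gnl3 (0.0548 to 0.135) in 1 each. Riok2 kept it in none (0.0520 to 0.144). Without DMSO 1 and IPRN 3, the libraries poor in liver transcripts, 0 of the 47 genes were called by edgeR, against 0.238% of all genes called lower. At an unadjusted p under 0.05 that fit gave 15 of the 47 lower, against 7.32% of all tested genes. When presence of liver transcripts entered the model as a term, 4 were called, Dkc1, Nop56, Wdr43 and Wdr75. That fit called 429 of 17159 tested genes in either direction, and the share called lower was not computed. Restricting the test to genes with a mean of at least 50 counts gave 12 of the 47, against 4.57% of all genes so tested. The median log2 fold change of the set was -0.14 or -0.15 in every one of these fits.

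**Figure D4:**
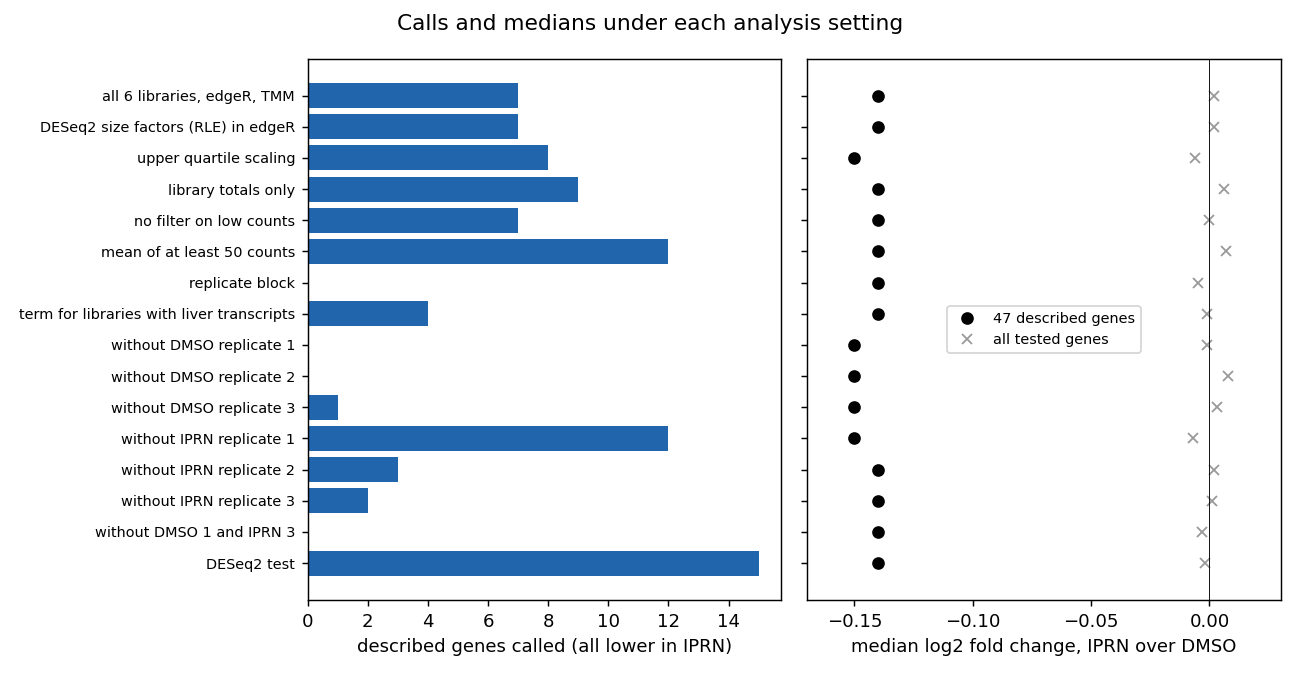
The left panel gives the number of the 47 genes called under each analysis setting, all of them lower in IPRN, and the right panel the median log2 fold change of the 47 genes (black) and of all tested genes (grey crosses). The number of calls runs from 0 to 15 while the median of the set remains between -0.15 and -0.14.

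Other genes of the pathway were listed by textbook function, but with earlier results of these data known. They had called genes in both directions. Of 162 tested, 14 fell (8.64%), 5 rose and 143 were not called, with a median log2 fold change of -0.087 and 106 negative values. Their median was -0.100 when genes with exon overlap were left out, where that of the 47 genes was -0.093. For large subunit assembly, 10 of 65 genes fell and 2 rose (median -0.060). Ddx21, a nucleolar RNA helicase, measured 475, 460.2 and 467 CPM in DMSO and 354, 377 and 372 CPM in IPRN, without overlap. It fell by 0.35 ± 0.045 on the log2 scale (1.27-fold, edgeR adjusted p = 0.0123). Ftsj3, an rRNA methyltransferase, fell 1.28-fold from 190.2 ± 5.92 to 149 ± 5.29 CPM and Rsl1d1 1.21-fold from 269.9 ± 5.40 to 223 ± 1.91 CPM. Ddx54, another helicase, and the kinase gene Nol9 rose 1.19-fold and 1.20-fold.

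**Figure D5:**
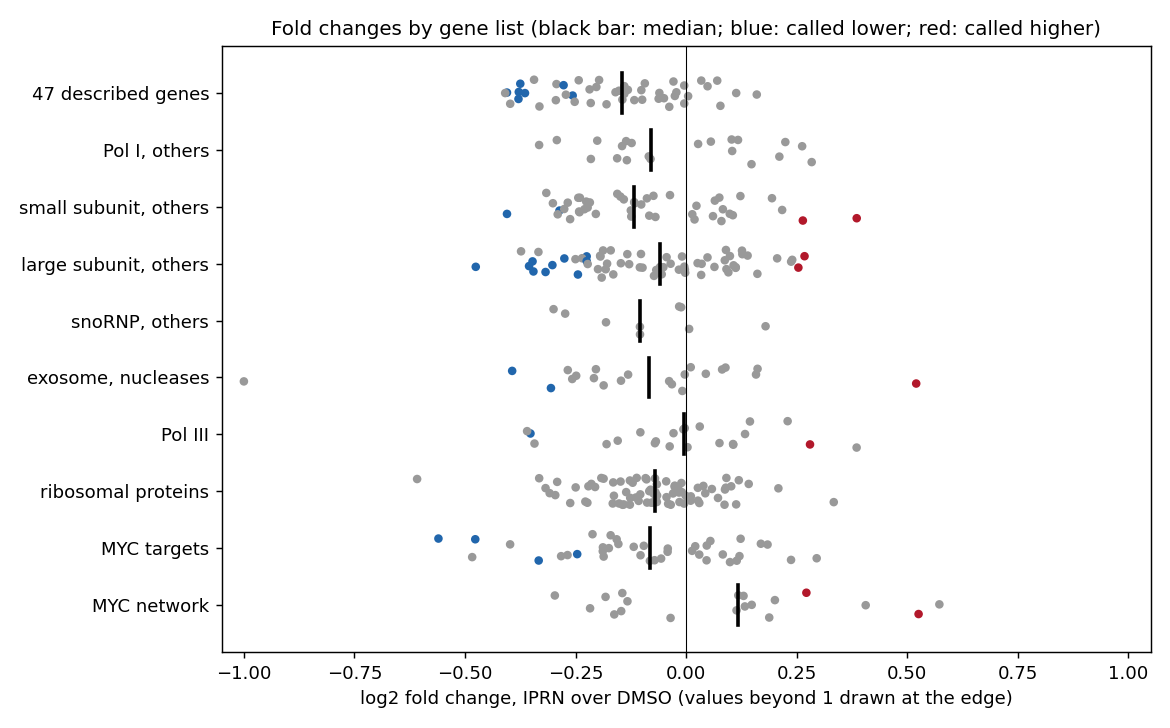
Log2 fold changes of the genes in each list, with the list median as a black bar, called genes in blue (lower) or red (higher), and values beyond 1 drawn at the edge. The medians drawn run from -0.14 for the 47 described genes, which were chosen with results known, to 0.12 for the MYC network list.

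For small subunit maturation, 2 of 45 other genes fell and 2 rose, with a median of -0.12. Ltv1, which accompanies the small subunit to the cytoplasm, fell 1.22-fold and Lyar 1.32-fold, while the helicase gene Dhx37 rose 1.31-fold, from 53.6 ± 2.10 to 70.1 ± 2.41 CPM, and Nol6 1.20-fold. Among exosome and nuclease genes 2 of 22 fell and 1 rose. Mtrex, the helicase that feeds RNA to the nuclear exosome, fell 1.24-fold. Pop1 and Pop5 both encode subunits of the ribonucleases P and MRP, yet Pop1 fell 1.31-fold and Pop5 rose 1.43-fold, from 12.4 ± 0.770 to 17.8 ± 0.0434 CPM.

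Among 21 other genes of RNA polymerase I transcription, 0 fell and 0 rose in edgeR (3 lower and 6 higher at an unadjusted p under 0.05, and 1 lower in DESeq2), with a median of -0.081. The 9 other snoRNP assembly genes had 0 calls in either direction in edgeR and in DESeq2 (2 lower at an unadjusted p under 0.05), with a median of -0.10. RNA polymerase III, which supplies the remaining ribosomal RNA, had 1 lower gene (Polr3f, 1.28-fold) and 1 higher gene (Gtf3c1, 1.21-fold) among 22, with a median of -0.005. Of all the genes named from these lists Ddx21 kept its call without any 1 IPRN library but not without any 1 DMSO library (adjusted p from 0.0617 to 0.0738), and Nol6 lost it whichever library was dropped (0.0622 to 0.157). Each of the others kept its call only without IPRN 1.

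Cytosolic ribosomal protein genes, whose products the pathway assembles, had 0 of 79 called in either direction by edgeR (11 lower and 1 higher at an unadjusted p under 0.05, and 6 lower in DESeq2). Their median log2 fold change was -0.070, and by library it stood at -0.174 in IPRN 1, -0.002 in IPRN 2 and -0.038 in IPRN 3. IPRN 1 thus lay apart from the rest, which the median of the 47 genes did not show. Single genes of the 47 did show it, Myc and Npm1 among them.

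MYC targets outside ribosome making gave 4 lower genes of 39 and 0 higher in edgeR, with a median of -0.082. At an unadjusted p under 0.05 edgeR gave 12 lower and 4 higher, and DESeq2 called 8 lower and 2 higher. Slc16a1, the lactate transporter, measured 214, 216 and 218 CPM in DMSO and 149.8, 158 and 157 CPM in IPRN, and fell 1.39-fold (edgeR adjusted p = 0.00285). Its call held whichever of the 6 libraries was left out, though not without both DMSO 1 and IPRN 3 (adjusted p = 0.108). Tfrc, the transferrin receptor, fell 1.47-fold, from 236 ± 7.08 CPM in DMSO to 143, 168 and 169.6 CPM in IPRN 1, 2 and 3, and kept its call without any 1 IPRN library but not without any 1 DMSO library (adjusted p from 0.0547 to 0.0738). Eif2s1, a subunit of an initiation factor of translation, fell 1.19-fold. The fourth was Paics, named after its value was seen.

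In the MYC network list, partners and rivals of MYC for the dimer partner MAX among them, 2 of 19 genes rose and 0 fell in edgeR. At an unadjusted p under 0.05 edgeR gave 3 lower and 5 higher, and DESeq2 called 2 lower and 3 higher. Mxd4, a MAX partner that represses E-box genes, rose 1.44-fold, from 23.9 ± 2.14 to 34.4 ± 1.54 CPM, and shares exon bases with another gene model. Trrap, a scaffold of histone acetyltransferases recruited by MYC, rose 1.21-fold. Among 11 genes that tie nucleolar stress to p53, 1 fell. It was Mdm2, the ligase that degrades p53, which measured 94.1, 91.5 and 95.4 CPM in DMSO and 69.6, 69.5 and 74.5 CPM in IPRN (1.32-fold lower, edgeR adjusted p = 0.0125), which kept its call without IPRN 1 or IPRN 3 and lost it without any other single library (adjusted p from 0.0530 to 0.0713). Eif2s1, Trrap and Mxd4 kept theirs only without IPRN 1.

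The gene ontology terms in the deposited tables place 44 of the 47 genes in the nucleolus, 25 in rRNA processing and 28 in ribosome biogenesis. Lsg1, Riok1 and Riok2 carry no nucleolus term. With the 47 genes left out, 40 of 711 tested nucleolus genes fell and 15 rose (median -0.041), 7 of 113 rRNA processing genes fell and 4 rose (-0.066), and 7 of 71 ribosome biogenesis genes fell and 1 rose (-0.069).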

How the data were processed

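Messenger RNA was selected by its poly(A) tail and copied with random primers, per the labels' protocols. Each library has a table in which the authors deposited whole-number counts and FPKM by Ensembl ID, per the file headers. Cutadapt 1.9 is listed in the submitters' processing notes. How reads were aligned and counted, and to which build, is not given in the sources used here. Among 55141 gene IDs shared with GENCODE M21 on GRCm38, 51957 had identical positions (94.2%), as did 42 of the 47 genes, so positions are printed as deposited.

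Groups and replicate numbers came from the labels. The main test of the counts was edgeR 4.0.16 under R 4.3.3 (TMM scaling, default expression filter with a minimum count of 10, quasi-likelihood test on group, two-sided, Benjamini-Hochberg over 17159 genes), with DESeq2 1.42.0 as an alternative. CPM values are TMM-normalised, except for the summed markers, which are scaled to library totals. The deposited FPKM values, scaled by the authors for length and depth, served only to compare levels between genes, with no test. A floor of 3 counts equals 0.0382 to 0.0497 CPM and covers counting error only. SEs derive from the fold change and its F statistic.

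The genes, their roles and the lists were chosen with earlier results of these data known. Every gene of the set is named. From each other list the genes called are named, up to 3 with the smallest adjusted p in each direction. Alternatives were 3 other scalings, 2 other count filters, a replicate block, a term for liver transcripts, leaving out libraries, DESeq2 and, added after seeing the data, genes without exon overlap. Same-numbered libraries of the groups did not deviate together (correlations -0.04, 0.00 and -0.05), so replicate numbers were not used as pairs.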

Additional observations from a re-analysis of the deposited data

How the results depend on the processing

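The median log2 fold change of the 47 genes stayed negative in every fit, from -0.154 to -0.138 with 1 library left out, and was -0.093 on genes without exon overlap. For the other ribosome biogenesis genes it ran from -0.092 to -0.077 with 1 library left out and was -0.100 without exon overlap. Counts of calls moved much more. With 1 library left out, between 133 and 1047 genes were called in all, 0 to 12 of the 47, and 0 to 20 lower and 0 to 4 higher of the other biogenesis genes. Without a count filter 621 genes were called, with 8 lower and 3 higher of the other biogenesis genes, and with a mean of at least 50 counts 12 of the 47 were called. The term for liver transcripts gave 429 genes, 4 of the 47, and 6 lower and 2 higher others. Leaving out DMSO 1 and IPRN 3 gave 53 genes and 0 in each of the other counts. DESeq2 gave 1908 genes, 15 of the 47, and 24 lower and 6 higher others. Only 25 of the 47 genes have no exon overlap, and 1 of these was called. Of the other biogenesis genes without exon overlap, 9 were lower and 4 higher. Myc ranged from -0.55 to -0.33 with 1 library left out and was called without IPRN 1 and by DESeq2 (-0.41). The cause of these changes was not tested. The replicate block, tried although nothing in the labels or the correlations pairs the samples, gave 103 genes and 0 of the 47, with 0 lower and 0 higher others. Single genes of the set other than Myc lost a call 48 times and gained one 21 times under the alternatives, and no called gene changed sign. Of the genes not called, Mdn1, Nob1, Nop10, Rcl1, Rrn3 and Rrp9 changed sign with a library left out, and Imp3, Mdn1, Nob1, Nop14, Rcl1 and Rrn3 did so without DMSO 1 and IPRN 3.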
